A study of Rattus norvegicus with 9 samples.

Results

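The cytosolic ribosomal protein genes encode the proteins of the small and large subunits of the ribosome and of the acidic stalk on the large subunit. They were chosen by symbol from the platform annotation of a rat bead array. The whole symbol had to be Rps or Rpl followed by a number, by p0 to p2 or by a, with at most 1 further letter a, x or l. Longer symbols, such as Rpl22l1, Rpl7l1 and those of the S6 kinases, were left out. The array carried 62 such genes, each with 1 probe, among 13311 named genes and 22523 probes. Of the 62 members, 23 belong to the small subunit, 36 to the large subunit and 3 to the stalk.

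RNA came from the brain cortex of rats in 3 groups of 3 arrays each. The groups were rats at a simulated sea level altitude, called normoxic in the study's design text, and hypoxic rats at simulated altitudes of 3 km and 7 km. The study was named for hypoxic neurons, a microRNA and its target. The sources used here name no strain, age or exposure length, and no genotype or drug treatment is named for any group. Nothing in the labels says that the 3 arrays of a group came from separate animals, so p-values measure the spread between these arrays, which may be technical. The cortex is a mixture of cell types, and in such bulk RNA fewer cells of a type and less RNA per cell cannot be told apart.

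Each ribosome holds 1 copy of nearly every ribosomal protein, and cells keep the amounts of these proteins in step with each other and with ribosomal RNA. In mammals the mRNAs start with a cytosine followed by a run of pyrimidines, the terminal oligopyrimidine (TOP) motif, through which the mTOR pathway and the protein Larp1 control their translation. That control acts on translation and on mRNA stability, and an array reads only the mRNA level. Neurons need ribosomes in the cell body and in dendrites, where some synaptic proteins are made.

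The shared start of these mRNAs could be read from RefSeq promoter sequences of the rat assembly GRCr8, which covered 51 of the 62 members. Each sequence below runs 5′ to 3′ from 10 bases before the annotated start through the 20 bases from it, with the pyrimidine run in capitals. Those shown are a selection of genes with results further on and do not represent all members. Of others with results, Rps3 had no run within 10 bases of the start, and Rps6 and Rpl5 had it 10 bases before the start.
Rps27: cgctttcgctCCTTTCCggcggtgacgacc
Rps18: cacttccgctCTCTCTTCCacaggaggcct
Rpl10: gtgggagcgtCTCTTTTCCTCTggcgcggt
Rpl35a: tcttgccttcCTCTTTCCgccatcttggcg
Rpl31: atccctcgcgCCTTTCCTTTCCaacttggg
Rplp0: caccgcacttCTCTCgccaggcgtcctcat
Rplp1: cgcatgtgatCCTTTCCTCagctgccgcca
Rpl29: tttctctttCTCTTCCggtcccaggcgctg
Rps23: ccttcctgcCTCTCTTCTCTCTTTCTCTCg
Rpsa: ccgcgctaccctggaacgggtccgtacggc

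The regions are chr2:177964587-177964616 on the minus strand for Rps27, chr20:4933735-4933764 on the plus strand for Rps18, and chrX:157205840-157205869 on the plus strand for Rpl10. Rpl35a lies at chr11:81235002-81235031 on the minus strand and Rpl31 at chr9:49143101-49143130 on the plus strand. Rplp0 lies at chr12:46718371-46718400 and Rplp1 at chr8:71290853-71290882, both on the minus strand. The other regions, all on the plus strand, are chr8:115947633-115947662 for Rpl29, chr2:23814507-23814536 for Rps23 and chr8:128728869-128728898 for Rpsa. The capitals open at the C at, or nearest to, the annotated start, and pyrimidines before that C stay in lower case, so the whole pyrimidine stretch can be longer, as in Rpl29. In Rpl29 and Rps23 that C lies 1 base before the annotated start, and the Rpsa window holds no run of this kind.

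Over all members, 21 of the 51 promoters (41.2%) had a C at the annotated start followed by at least 4 pyrimidines, against 461 of 19005 protein-coding genes in the same table (2.43%). The runs at the start were 5 to 12 bases long with a median of 7. When the start was allowed to shift by up to 10 bases to either side, 38 members (74.5%) had such a run, against 28.1% of protein-coding genes. Of other motifs, counted on both strands from 250 bases before to 50 after the start, CCGGAAG was in 16 of the 51 promoters (31.4%, against 11.1%). The letters AAGATGGC, part of the YY1 motif, were in 5 (9.8%, against 3.9%). The genes are scattered: 61 of the 62 could be placed in the gene table of that assembly, on 19 chromosomes, with the most, 7, on chromosome 1.

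One array stood apart from the others. Sea level replicate 3 had rank correlations of 0.642 to 0.66 with the other 8 arrays over all probes, while those 8 correlated with each other at 0.969 to 0.978. It had 8170 probes detected (detection p below 0.05) against 5881 to 6621 on the others, and a median raw signal of 203.9 against 121.2 to 158.6. Comparisons with sea level are therefore given on 9 arrays and on the 8 arrays without it, which leaves 2 arrays at sea level. Of the cell type marker lists, excitatory neuron markers (4 of 8 tested) summed to between 7500 and 13000 normalized signal units above the background floor on all 9 arrays, and astrocyte markers (6 of 8 tested) to between 10000 and 12000. Some neuronal and glial markers were thus read on every array. Of the 5 excitatory neuron markers with a probe, only 2 were detected on 3 km replicates 1 and 2 and on 7 km replicates 2 and 3. With so few arrays a group, precision is limited throughout.

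Of the 62 members, 53 were detected on at least 3 arrays and tested, with 21 of 23 in the small subunit, 30 of 36 in the large subunit and 2 of 3 in the stalk. Levels are log2 signals after background correction and quantile normalization, on which an undetected probe sits at about 7.3. Differences of dim probes are compressed towards 0 by that floor. Among the tested members the levels ran from just above that floor, as for Rps2 and Rpl5, to about 13 for Rplp0, and levels of different probes are not compared here. The SD between arrays of a group was 0.136 in the median member on 8 arrays, against 0.0385 in the median tested probe, many of which lie near the floor. It was lowest for Rps24 at 0.00792 and highest for Rps9 at 0.745.

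**Figure D1:**
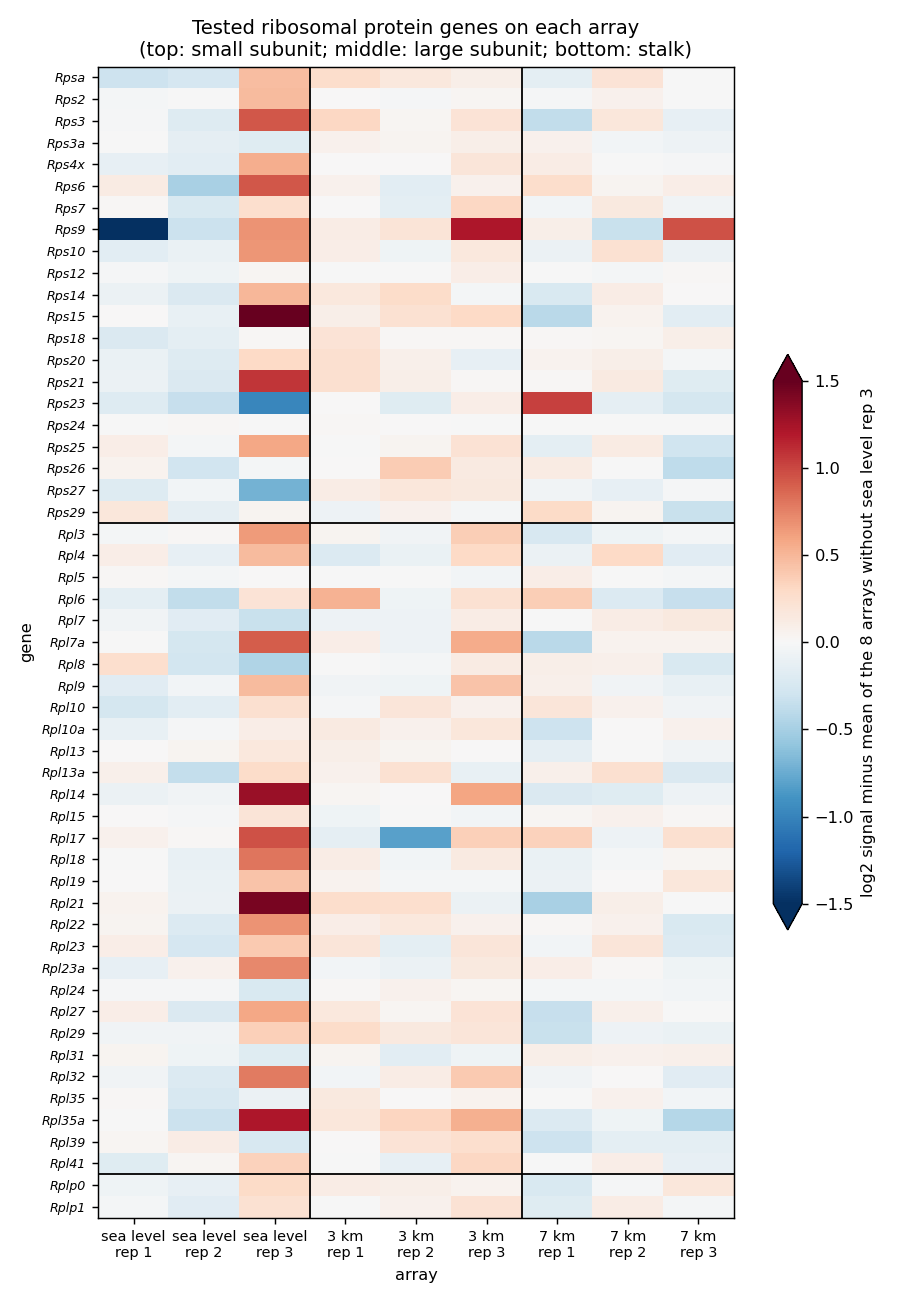
Heat map of the 53 tested ribosomal protein genes (vertical, by subunit) on the 9 arrays (horizontal, by altitude), with colour for the log2 signal minus the gene's mean over the 8 arrays without sea level replicate 3, clipped at 1.5 either way. Sea level replicate 3 is red for most genes, and single cells stand out for Rps9, Rps23 and Rpl17.

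The mean of the members differed between arrays of 1 altitude as well as between altitudes. Measured as the deviation of each member from its own mean over the 8 arrays, they averaged -0.07, -0.14 and 0.37 on sea level replicates 1, 2 and 3. The averages were 0.07, 0.02 and 0.17 on the 3 km arrays and -0.03, 0.03 and -0.05 on the 7 km arrays. On the 3 km arrays 37, 31 and 43 of the 53 members lay above their own mean, and on the 7 km arrays 21, 32 and 14 did. On sea level replicates 1 and 2 the counts were 21 and 7, so replicate 2 was low for nearly the whole set.

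Sea level replicate 3 had 42 of 53 members above the mean of the other arrays. Its members ranged from -0.97 (Rps23, a protein of the decoding centre) to 1.54 (Rps15, in the head of the small subunit). On that array 5 members (9.43%) lay more than 1 above or below the mean in log2, against 6.7% of all tested probes. The sea level group therefore held both the lowest and the highest array mean of the members.

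**Figure D2:**
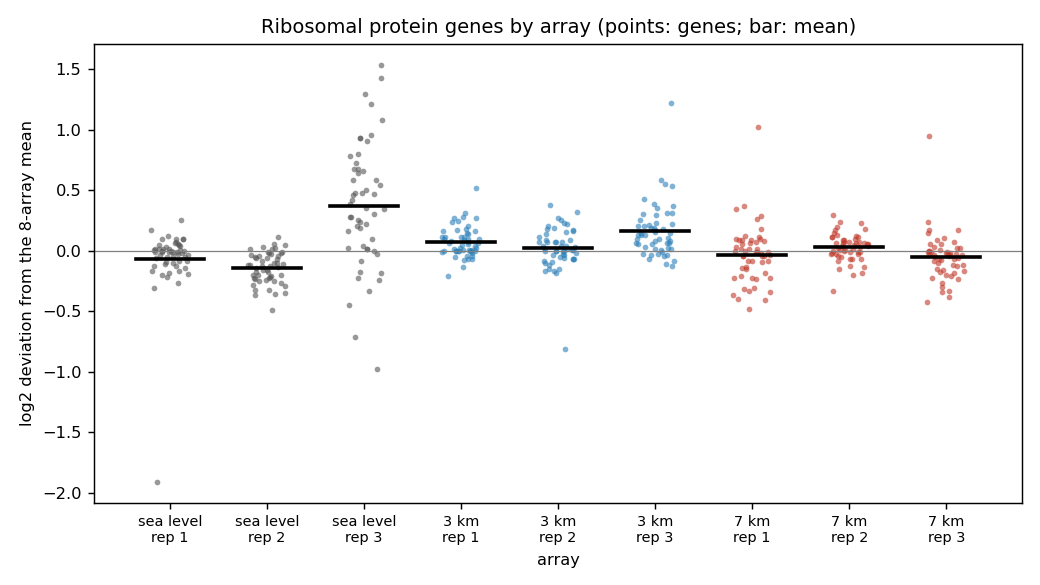
Log2 deviation of the 53 tested members (points) from their mean over the 8 arrays without sea level replicate 3, on each of the 9 arrays, with the mean per array as a bar. The bars run from -0.14 on sea level replicate 2 to 0.37 on sea level replicate 3, where the points also spread most.

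No ribosomal protein gene passed an adjusted p of 0.05 in any of the 3 comparisons (limma, Benjamini-Hochberg over all tested probes), on 9 or on 8 arrays. For 7 km against sea level the share of all tested probes called was 0.12% on 9 arrays and 0.308% on 8. For 3 km against sea level, and for 7 km against 3 km, 0 probes were called on either set of arrays (0.0%). At an unadjusted p below 0.05, 8.07% and 9.48% of all tested probes stood out between 3 km and sea level, on 9 and 8 arrays. Between 7 km and 3 km the shares were 2.7% and 8.19%. The counts of members below are read against such shares.

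Whether the members were higher or lower at 3 km than at sea level turned on the sea level array that stands apart. On 8 arrays 48 of the 53 were higher at 3 km, with a median log2 difference of 0.19, while 51.4% of all tested probes were higher and their median was 0.00. Small subunit genes were higher in 20 of 21 cases (median 0.22), large subunit genes in 26 of 30 (median 0.15), and both stalk genes were higher. On 9 arrays 28 of 53 were higher, against 49.7% of all tested probes, and the median was 0.00.

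On 8 arrays all 3 km arrays lay above both sea level arrays for 24 members (45.3%), against 15% of all tested probes, and below them for 0 members, against 15.6%. At an unadjusted p below 0.05, 11 members (20.8%) were higher at 3 km and none lower, against 4.32% and 5.15% of tested probes. On 9 arrays only Rpl24, Rps23, Rps27 and Rps3a had 3 km arrays that did not overlap sea level and lay above it, against 8.8% of tested probes, and no member lay below (10.7%). At an unadjusted p below 0.05, 4 members were higher and 0 lower on 9 arrays, against 3.26% and 4.81% of tested probes. Scaling the 8 arrays to equal medians left 44 of 53 members higher at 3 km, and the authors' deposited value table left 49. On 9 arrays median scaling put all 53 lower, with a median of -1.57, but the median of all tested probes was then -0.90. The members share their arrays, so these counts are not 53 separate observations.

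Other features of the arrays are set beside the same groups. Of these, the oligodendrocyte sums overlapped between 3 km and sea level. The choroid plexus and red cell sums were highest, and the striatal sum lowest, on sea level replicate 3. The mean raw signal of all probes was 420.2, 442.8 and 352.7 at 3 km, against 347.4 and 298.8 on sea level replicates 1 and 2. Summed striatal markers (4 of 6 tested, the list's defining genes being those of striatal projection neurons) ran from 7340 to 12300 at 3 km. They were 2580 and 5510 on those sea level arrays and 661 on sea level replicate 3. Endothelial markers (2 of 7 tested, Flt1 and Tek undetected) summed to 2120 to 3830 at 3 km, against 1570 and 1300. Oligodendrocyte markers (6 of 8 tested, Mag undetected) summed to 4980 to 7130 at 3 km, against 6850 and 7670. Choroid plexus markers (2 of 6 tested, Folr1 and Clic6 undetected) summed to 3370 on sea level replicate 3, and to at most 92.7 on the others. Red cell markers (2 of 5 tested, Alas2 undetected) summed to 13400 on that array, and to between 4840 and 10400 on the others. The part of these in the ribosomal protein values was not tested.

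Between 7 km and sea level the direction also turned on sea level replicate 3. On 8 arrays 38 of 53 were higher at 7 km with a median of 0.05, against 50% and 0.00 for all tested probes. On 9 arrays 18 were higher and the median was -0.07, against 47.7% and -0.01. Scaling the 8 arrays to equal medians turned that direction, with 9 of 53 higher and a median of -0.11, against -0.04 over all tested probes. Small subunit genes had a median of 0.12 on 8 arrays and -0.01 on 9, and large subunit genes 0.03 on 8 and -0.13 on 9. Summed oligodendrocyte markers ran from 1960 to 4150 at 7 km, against 6840 to 7670 over all 3 sea level arrays. Endothelial markers summed to 2160 to 4200 at 7 km, against 1170 to 1570. The liver list (2 of 5 tested, Alb and Serpina1 undetected, so its signal is that of Ttr and Tf) summed to 2940 to 4500 at 7 km, against 6840 to 11700. The choroid plexus list, which also holds Ttr, summed to at most 92.7 outside sea level replicate 3. On those arrays the liver list signal was thus mostly that of Tf. The part of these in the 7 km values was not tested.

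The count of members that separated 7 km from sea level differed between 9 and 8 arrays. On 9 arrays Rpl31 and Rpl7 had 7 km arrays that all lay above sea level (3.77% of members, against 12.2% of tested probes), and Rpl13 and Rpl29 had arrays that all lay below it (3.77%, against 12.5%). On 8 arrays 9 members lay above (17%, against 16.3%) and 4 below (7.55%, against 16.1%). At an unadjusted p below 0.05, 5 members (9.43%) were higher and 1 (1.89%) lower on 8 arrays, against 5.49% and 7.05% of tested probes. On 9 arrays 1 was higher and 1 lower, against 4.54% and 6.84%. The 95% interval lay inside 0.5 either way in log2 for 40 of 53 members on 8 arrays and for 25 on 9.

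The comparison of 7 km with 3 km does not use the sea level arrays except for the shared estimate of spread and the normalization. Of the 53 members, 41 were lower at 7 km on both sets of arrays, with medians of -0.09 on 9 and -0.08 on 8, against 0.00 over all tested probes, 49.6% of which were higher. The 7 km arrays all lay below the 3 km arrays for 10 members (18.9%), against 7.71% of tested probes on 9 arrays and 7.68% on 8. These were Rpl10a, Rpl13, Rpl14, Rpl22, Rpl24, Rpl29, Rpl35a, Rpl39, Rps15 and Rps27. Only Rpl15 and Rpl31 lay the other way (3.77%, against 5.93% and 5.95%). At an unadjusted p below 0.05, 0 members were higher and 2 lower on 9 arrays, against 0.751% and 1.95% of tested probes. On 8 arrays 2 were higher and 7 lower, against 3.48% and 4.71%. With median scaling of 8 arrays 50 of 53 were lower at 7 km, with a median of -0.24 against -0.06 over all tested probes, and 34 were lower in the authors' deposited value table. Oligodendrocyte markers summed to 1960 to 4150 at 7 km, against 4980 to 7130 at 3 km, and the liver list to 2940 to 4500 at 7 km, against 5660 to 6500 at 3 km. Striatal markers ran from 2280 to 9510 at 7 km and from 7340 to 12300 at 3 km. Their part in these differences was not tested. This comparison and that of 3 km with sea level share the 3 km arrays.

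The members were also split by whether the pyrimidine run opens at exactly the annotated start base. This sorts annotated starts and not measured mRNA starts. Of the 51 promoters 21 had the run at that base and 38 within 10 bases of it, so many members counted as without it have a run nearby. Between 3 km and sea level, 18 of 20 tested members with the run were higher on 8 arrays (median 0.20), and 22 of 23 without it (median 0.17). On 9 arrays 15 of 20 with the run were higher (median 0.06), and 9 of 23 without it (median -0.02). Between 7 km and 3 km the medians were -0.13 with the run and -0.08 without it on both sets of arrays. No test was made of this split.

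**Figure D3:**
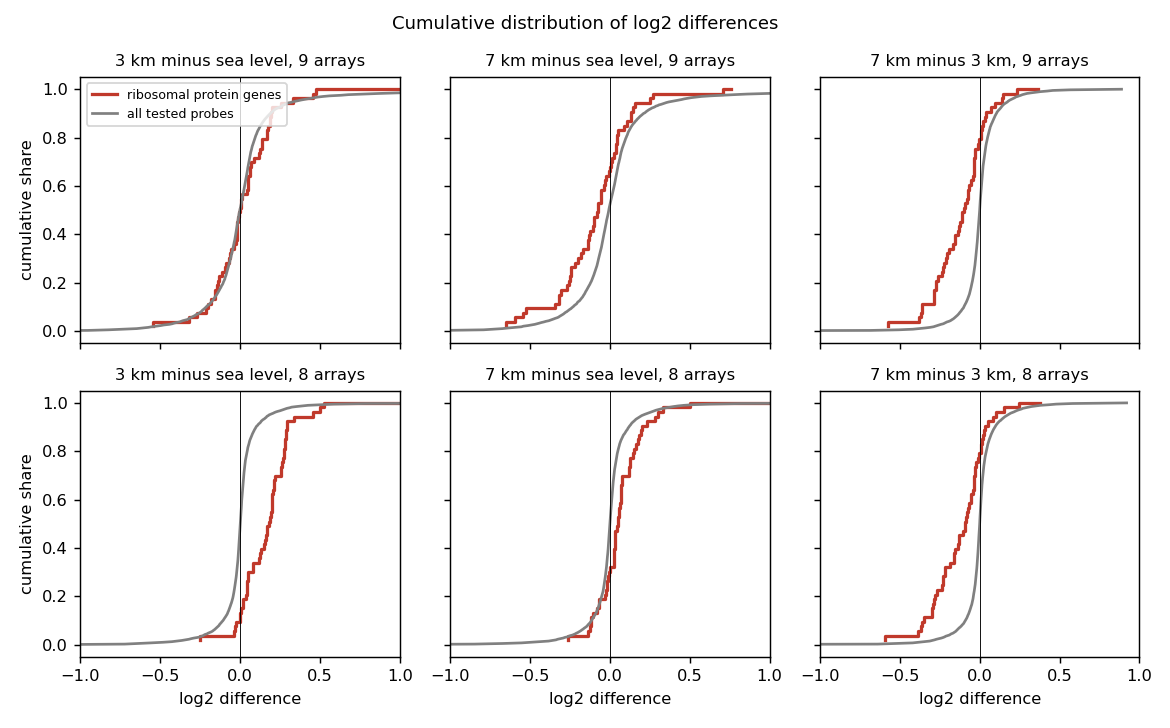
Cumulative share of the 53 tested members (red) and of all tested probes (grey) by log2 difference, for the 3 comparisons on 9 arrays (top) and 8 arrays (bottom), drawn from -1 to 1. The red curve lies right of the grey one at 3 km on 8 arrays, where 48 of 53 members were higher than at sea level, and left of it at 7 km against 3 km.

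Among small subunit genes, Rps27, a zinc-finger protein of the small subunit, had the smallest p of all members between 3 km and sea level on 8 arrays. Its log2 level was 9.67, 9.83 and 9.16 on sea level replicates 1 to 3, 9.98, 10.05 and 10.02 at 3 km, and 9.82, 9.75 and 9.85 at 7 km. All 3 km arrays lay above every sea level and 7 km array. The difference between 3 km and sea level was 0.28 ± 0.056 (SE) on 8 arrays (limma adjusted p = 0.183) and 0.46 ± 0.15 on 9 (adjusted p = 0.533). Against 3 km, 7 km differed by -0.22 ± 0.050 on 8 arrays (limma adjusted p = 0.382) and -0.21 ± 0.15 on 9.

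Rpsa, which sits where mRNA leaves the small subunit and is also known as a laminin receptor, had levels of 11.61, 11.67 and 12.38 at sea level, 12.18, 12.08 and 12.00 at 3 km and 11.77, 12.12 and 11.91 at 7 km. Among the sea level arrays only replicate 3 exceeded the 3 km arrays. On 8 arrays the difference was 0.46 ± 0.11 at 3 km (limma adjusted p = 0.263) and 0.30 ± 0.11 at 7 km (limma adjusted p = 0.341). On 9 arrays it was 0.20 ± 0.20 at 3 km and 0.05 ± 0.20 at 7 km.

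Rps18, in the head of the small subunit, was at 11.65, 11.72 and 11.88 at sea level, 12.07, 11.88 and 11.88 at 3 km and 11.88, 11.89 and 11.95 at 7 km. The altitude arrays lay above sea level replicates 1 and 2, level with replicate 3. Its differences on 8 arrays were 0.26 ± 0.064 at 3 km (limma adjusted p = 0.296) and 0.23 ± 0.064 at 7 km (limma adjusted p = 0.242). Its 9-array differences, 0.19 ± 0.074 and 0.16 ± 0.074, were of similar size.

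Rps3a, a platform protein, had the smallest p between 3 km and sea level on 9 arrays. Its levels were 8.26, 8.14 and 8.09 at sea level, 8.34, 8.31 and 8.36 at 3 km and 8.34, 8.23 and 8.20 at 7 km. The 3 km arrays lay above all 3 sea level arrays, by 0.17 ± 0.054 on average (limma adjusted p = 0.507 on 9 arrays), and by 0.12 ± 0.048 on 8.

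Rps6, the substrate of the S6 kinases and a standard readout of mTOR activity by its phosphorylation, spread widely at sea level. It was at 10.37, 9.76 and 11.18 there, at 10.31, 10.09 and 10.32 at 3 km and at 10.51, 10.29 and 10.35 at 7 km. Its groups overlapped, and the 7 km difference on 8 arrays was 0.33, with a 95% interval from -0.13 to 0.80. On 9 arrays it was -0.05, from -0.78 to 0.68. Rps3, at the mRNA entry channel, was at 11.23, 11.05 and 12.18 at sea level, 11.56, 11.27 and 11.45 at 3 km and 10.88, 11.42 and 11.12 at 7 km.

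Rps14, whose loss of 1 copy underlies the anaemia of the human 5q- syndrome, was also highest on sea level replicate 3. Its levels were 12.72, 12.60 and 13.31 at sea level, 12.97, 13.08 and 12.78 at 3 km and 12.59, 12.93 and 12.82 at 7 km. With that array left out its 3 km difference was 0.28, with a 95% interval from -0.02 to 0.58, and on 9 arrays 0.07. Rps25, needed by several viral internal ribosome entry sites, differed by -0.32 ± 0.17 at 7 km on 9 arrays (limma adjusted p = 0.415) and by -0.14 ± 0.13 on 8. Rps2, like Rps3 at the mRNA entry channel and near the floor at 7.42 and 7.44 on sea level replicates 1 and 2, was at 7.92 on replicate 3 and between 7.43 and 7.51 on the altitude arrays.

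Among large subunit genes, Rpl10, a late-joining protein near the catalytic centre and encoded on the X chromosome, stood above sea level replicates 1 and 2 at both altitudes. It was at 11.90, 12.01 and 12.41 at sea level, 12.15, 12.35 and 12.23 at 3 km and 12.35, 12.24 and 12.12 at 7 km. Without sea level replicate 3 it was higher by 0.29 ± 0.082 at 3 km (limma adjusted p = 0.353) and by 0.28 ± 0.082 at 7 km (limma adjusted p = 0.264). On 9 arrays the differences were 0.14 ± 0.13 and 0.13 ± 0.13.

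Rpl29, Rpl35a and Rpl39 were the large subunit genes with the smallest p between 7 km and 3 km on 8 arrays. Rpl29, a basic protein that also binds heparin, was at 12.49, 12.49 and 12.89 at sea level, 12.82, 12.68 and 12.73 at 3 km and 12.21, 12.47 and 12.44 at 7 km. It differed by -0.37 ± 0.074 between 7 km and 3 km (limma adjusted p = 0.334 on 8 arrays), and its 3 km arrays lay above sea level replicates 1 and 2 and all 7 km arrays.

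Rpl35a, picked after its values had been seen and whose loss of 1 copy is a cause of Diamond-Blackfan anaemia in humans, was at 8.99, 8.66 and 10.20 at sea level, 9.16, 9.31 and 9.53 at 3 km and 8.78, 8.92 and 8.57 at 7 km. Here too the 3 km arrays lay above all 7 km arrays. The difference between 7 km and 3 km was -0.59 ± 0.14 on 8 arrays (limma adjusted p = 0.400), and that between 3 km and sea level 0.53 ± 0.16 (limma adjusted p = 0.390). Sea level replicate 3 lay 1.38 above the mean of the other sea level arrays, and with it the second difference was 0.05 ± 0.36.

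Rpl39, a small protein lining the exit tunnel, was lower at 7 km than in either other group on 8 arrays. Its levels were 8.57, 8.65 and 8.30 at sea level, 8.54, 8.75 and 8.79 at 3 km and 8.23, 8.39 and 8.39 at 7 km. The difference was -0.35 ± 0.078 against 3 km (limma adjusted p = 0.382) and -0.26 ± 0.087 against sea level (limma adjusted p = 0.304). Sea level replicate 3, at 8.30, lay within the 7 km range, and with it the difference from sea level was -0.17 ± 0.11.

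Rpl7 and Rpl31 ran the other way. Rpl7 was at 7.93, 7.80 and 7.64 at sea level, 7.90, 7.90 and 8.08 at 3 km and 7.97, 8.09 and 8.12 at 7 km. It had the smallest p of any member between 7 km and sea level on 9 arrays, with a difference of 0.27 ± 0.085 (limma adjusted p = 0.377), and 0.16 ± 0.065 on 8. Rpl31, at the rim of the exit tunnel, was at 7.78, 7.68 and 7.56 at sea level, 7.78, 7.58 and 7.68 at 3 km and 7.83, 7.81 and 7.81 at 7 km. Its 7 km arrays lay above all others, by 0.14 ± 0.068 over sea level on 9 arrays (limma adjusted p = 0.414) and 0.07 ± 0.046 on 8.

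Rpl13 lay low at 7 km, at 7.60, 7.73 and 7.68, against 7.75, 7.78 and 7.90 at sea level, with a difference of -0.14 ± 0.053 on 9 arrays (limma adjusted p = 0.414) and -0.07 ± 0.034 on 8. Rpl15, also close to the floor, was at 7.62, 7.65 and 7.60 at 7 km, against 7.52, 7.58 and 7.54 at 3 km. Rpl5, which with Rpl11 and the 5S RNA binds Mdm2 when ribosome assembly fails, was at 7.53, 7.49 and 7.53 at sea level, 7.52, 7.52 and 7.49 at 3 km and 7.62, 7.52 and 7.50 at 7 km. Rpl13a, often used as a reference gene for PCR, was at 9.30, 8.87 and 9.5 at sea level, 9.29, 9.45 and 9.11 at 3 km and 9.30, 9.46 and 9.01 at 7 km, so its groups overlapped.

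The stalk proteins bring elongation factors to the ribosome, Rplp0 as the base and Rplp1 with Rplp2 as the arms. Rplp0 was at 13.11, 13.05 and 13.45 at sea level, 13.28, 13.26 and 13.22 at 3 km and 12.94, 13.15 and 13.35 at 7 km. Rplp1 was at 11.40, 11.25 and 11.65 at sea level, 11.43, 11.50 and 11.65 at 3 km and 11.24, 11.54 and 11.40 at 7 km. Without sea level replicate 3, differences at 3 km were 0.17, with a 95% interval from -0.08 to 0.42, for Rplp0 and 0.20, from -0.06 to 0.46, for Rplp1. With that array they were 0.05, from -0.25 to 0.35, for Rplp0 and 0.09, from -0.19 to 0.37, for Rplp1.

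**Figure D4:**
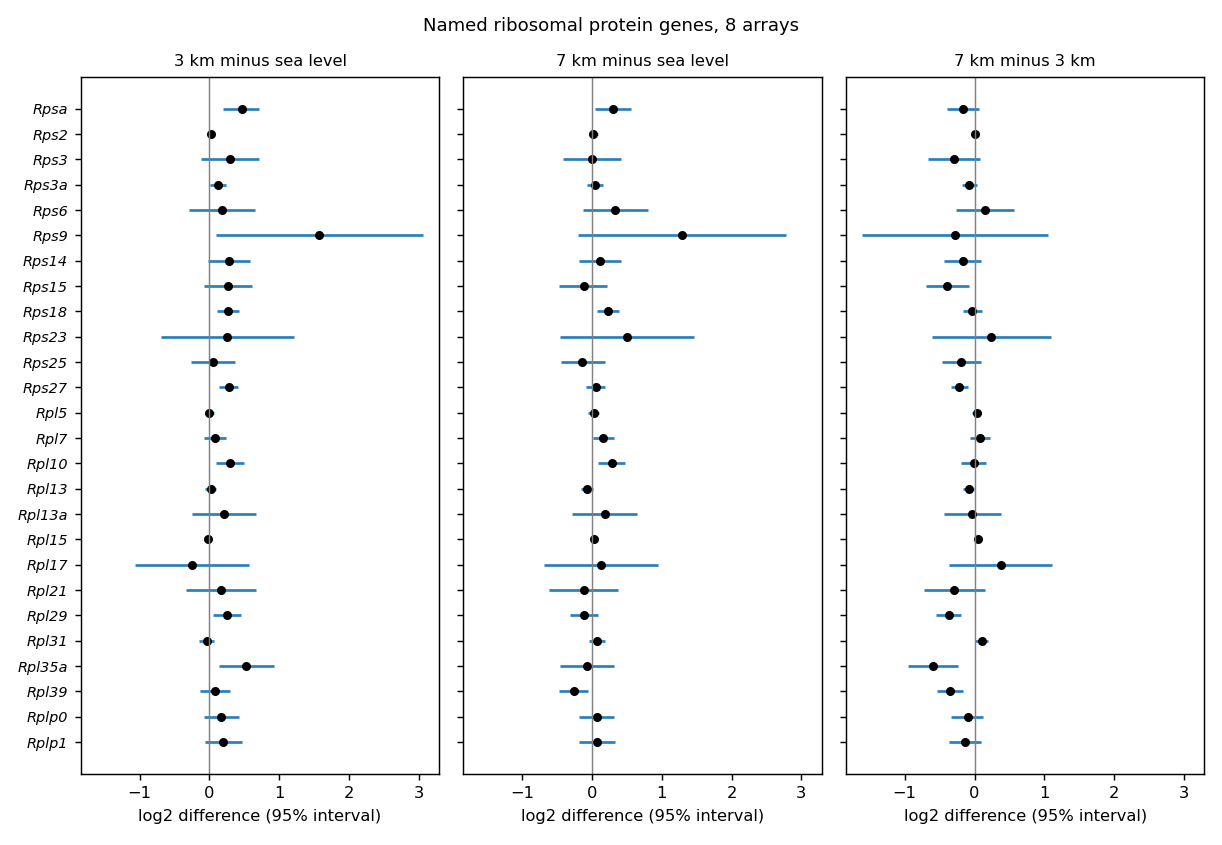
Log2 difference (point) with its 95% interval (line) for 26 named and tested members on 8 arrays, small subunit at the top and stalk at the bottom, for each comparison. Rps9 and Rps23 have the widest intervals, and most points lie right of 0 at 3 km minus sea level.

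A few members stood out on single arrays and were picked after their values had been seen. Rps9, at the mRNA entry channel, had a raw signal of 225.4 on sea level replicate 1 and 1177 and 1257 on replicates 2 and 3. At 3 km it was at 2067, 2333 and 2691, and at 7 km at 1768, 1314 and 2414. Raw signals are not scaled between arrays. After normalization the log2 levels of Rps9 were 7.43, 9.01 and 10.01 at sea level. They were 9.45, 9.53 and 10.56 at 3 km and 9.43, 9.0 and 10.29 at 7 km. The 3 km difference on 8 arrays was 1.57 ± 0.61 (limma adjusted p = 0.496), a fold of 2.98, and its sea level mean rests on the 2 arrays at 225.4 and 1177. On 9 arrays it was 1.03 ± 0.67.

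Rps23 stood out on 7 km replicate 1, with a raw signal of 3327 against 1820 and 1852 on the other 7 km arrays. It was also lowest on sea level replicate 3, at 800, against 1886 and 1480. Rpl17, which lines the exit tunnel, had a log2 level of 10.20 on 3 km replicate 2, against 10.88 and 11.37 on replicates 1 and 3. Rps15, at 9.21, 9.11 and 10.75, and Rpl21, at 10.59, 10.45 and 11.96, were high on sea level replicate 3, each by over 1 in log2.

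**Figure D5:**
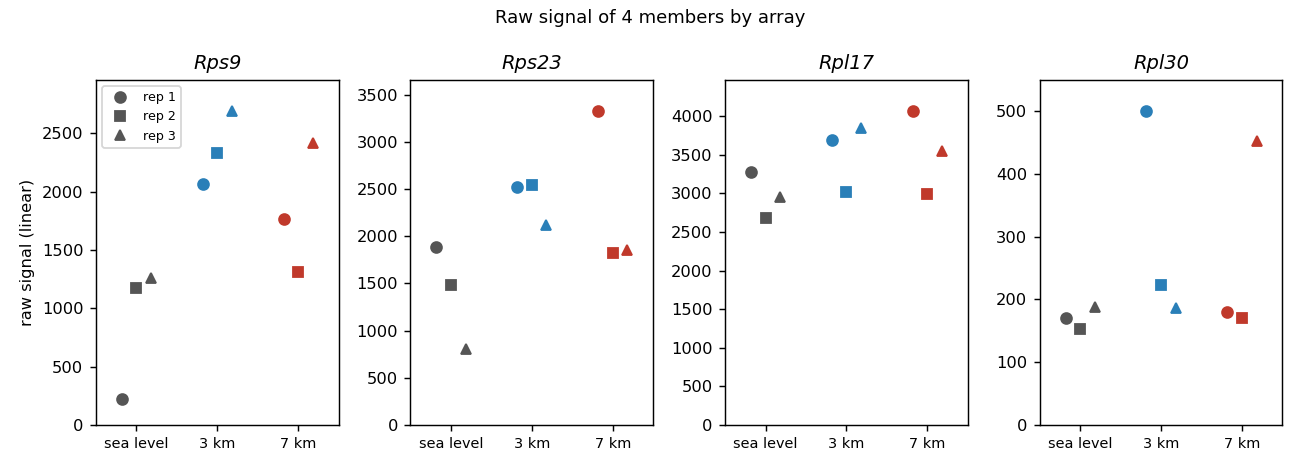
Raw signal (linear axes from 0, each gene on its own scale) of Rps9, Rps23, Rpl17 and Rpl30 by altitude, with 1 point per array and the marker shape giving the replicate number. Rps9 is at 225.4 on sea level replicate 1, and Rpl30 is high on 3 km replicate 1 and 7 km replicate 3.

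The 9 members that were not tested were Rpl11, Rpl12, Rpl30, Rpl34, Rpl36a, Rpl3l, Rplp2, Rps16 and Rps19. For 7 of them the probe was not detected on any array, among them Rpl11, a partner of Rpl5, Rplp2 of the stalk and Rps19, the gene most often mutated in human Diamond-Blackfan anaemia. Their mRNAs are among those every cell uses, so their signals give no level here. Rpl3l, the muscle counterpart of Rpl3, was detected on 1 array, sea level replicate 3.

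Rpl30 was detected on 2 arrays, with raw signals of 500.3 on 3 km replicate 1 and 452.8 on 7 km replicate 3. On the other arrays of those groups it was at 223.7 and 186.5 at 3 km and at 179.8 and 171.1 at 7 km, and at sea level it was at 170.3, 153.4 and 187.4. The gene table of the assembly holds 920 pseudogene entries with a ribosomal protein symbol, and whether such copies share signal with the probes was not tested. Rps27a and Rpl26 have no probe by symbol and are not analysed here.

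Other genes of ribosome making and its control were taken from lists, of which none had a called gene in any comparison on 9 or 8 arrays. Of the biogenesis genes, which make, modify and assemble ribosomal RNA, 20 of 39 listed were tested on 9 arrays and 19 on 8. At 7 km, 15 of the 20 were lower than at sea level on 9 arrays (median -0.06), against 3479 of 6656 tested probes. On 8 arrays 11 of 19 were lower (median -0.01), against 3251 of 6499. Fbl, the methyltransferase fibrillarin, had levels of 8.17, 8.03 and 8.13 at 7 km, against 8.42, 8.32 and 8.62 at sea level. All 7 km arrays lay below sea level, by -0.35 ± 0.088 (limma adjusted p = 0.281) on 9 arrays and -0.24 ± 0.067 (limma adjusted p = 0.244) on 8. On 8 arrays Gar1, at -0.08 ± 0.019 (limma adjusted p = 0.207), and Nip7, at -0.07 ± 0.018 (limma adjusted p = 0.221), had smaller p than Fbl.

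Npm1, the nucleolar protein nucleophosmin, was at 9.76, 9.47 and 9.03 at 7 km and 8.90, 8.88 and 9.05 at 3 km. Its difference of 0.49 ± 0.19 on 8 arrays did not pass (limma adjusted p = 0.575). It was at 11.51 on sea level replicate 3, against 9.12 and 8.89 on sea level replicates 1 and 2.

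Of the mTOR and TOP regulators 10 of 21 listed were tested. Eif4ebp1, the translation repressor that mTOR phosphorylates, had levels of 7.74, 7.90 and 7.88 at 7 km, against 7.68, 7.66 and 7.51 at sea level. The 7 km arrays all lay above sea level, by 0.23 ± 0.067 on 9 arrays (limma adjusted p = 0.360) and 0.13 ± 0.048 on 8. Of the elongation factors and other TOP mRNAs 8 of 14 listed were tested. Of 7 promoters of this list, 0 had the pyrimidine run at the annotated start and 4 had it within 10 bases. At 3 km, 6 of the 8 were higher than at sea level on 8 arrays (median 0.07), against 51.4% of all tested probes. On 9 arrays 5 of the 8 were higher (median 0.03), against 49.7%. Eef1a1, the factor that delivers tRNA, was at 13.03, 13.05 and 13.02 at 3 km, against 13.19, 13.06 and 13.32 at sea level. It differed by -0.16 ± 0.063 on 9 arrays (limma adjusted p = 0.533) and by -0.08 ± 0.041 on 8 (limma adjusted p = 0.587). Of the 53 ribosomal protein genes, 28 were higher at 3 km on 9 arrays and 48 on 8.

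Of the proteins that sit on the ribosome without matching the rule, 6 of 13 listed were tested. Naca, a subunit of the complex that shields emerging chains, differed by -0.40 ± 0.089 between 7 km and 3 km on 8 arrays (limma adjusted p = 0.382) and by 0.32 ± 0.10 between 3 km and sea level (limma adjusted p = 0.395). On 9 arrays the differences were -0.38 ± 0.13 and 0.18 ± 0.13. Of the ribosome stress and p53 genes 2 of 15 listed were tested. Mdm2, the p53 ligase, differed by 0.06 ± 0.033 and Ccng1, a p53 target, by -0.40 ± 0.16 between 7 km and sea level on 9 arrays (limma adjusted p = 0.414 for both). On 8 arrays Mdm2 differed by 0.03 ± 0.020 and Ccng1 by -0.18 ± 0.081.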

How the data were processed

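The authors' deposited table gave non-normalized bead intensity and a detection p-value per probe, per the file headers. RNA was Trizol-extracted, cleaned with DNase I, and labelled as biotinylated cRNA, per the labels' protocols. A second deposited intensity table, background-subtracted and scaled by the authors (method and centring not given in the sources used here, array medians -23 to 19.5), served as an alternative. Its arrays had means of 208 to 209. Signals were corrected and normalized with neqc (limma 3.58.1, R 4.3.3; negative controls inferred from detection p, offset 16, quantile, log2). Probes with detection p below 0.05 on at least 3 arrays were tested with lmFit and eBayes, with 1 mean per group, at adjusted p 0.05. The fit on 8 arrays repeated all steps. Gene symbols came from the platform annotation: 13353 probes had 1 symbol and 9170 none. Array values in the text come from the 9-array normalization. The members and lists were chosen with earlier results of these data known. Members named were the 13 listed for their roles (11 of them with a probe), those past the threshold, the 3 with the smallest p per direction, comparison and set of arrays, and those said to be picked later. Of the other lists, up to 3 genes per list and comparison with the smallest p could be named. Promoters are from RefSeq.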

Additional observations from a re-analysis of the deposited data

How the results depend on the processing

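No ribosomal protein gene was called in any of 24 alternatives to the 9-array limma fit in any comparison. The smallest adjusted p of a member were 0.056 (Rpsa, 3 km minus sea level) and 0.0775 (Rpl7, 7 km minus sea level), both with array weights, where sea level replicate 3 had a weight of 0.04391. Between 7 km and 3 km it was 0.17 (Rpl13, median scaling on 8 arrays). Of 26 named and tested members, 20 (7 km minus sea level), 24 (3 km minus sea level) and 10 (7 km minus 3 km) changed sign under at least 1 alternative. Median scaling of 9 arrays put all 53 members lower at both altitudes than at sea level. Every member higher than sea level in the 9-array limma fit is therefore counted as a change of sign. The count of all probes called between 7 km and sea level was 8. It was 0 with median scaling, 0 with only the arrays compared, 0 with the replicate block, 3 with an intensity trend, 4 for probes detected on all arrays, 5 in the authors' value table and 176 with array weights. Without sea level replicate 3 it was 20, and with that array left out it was also 60 without background correction, 16 with median scaling, 34 in the authors' table, 3 with the replicate block and 19 for probes detected on all arrays. Between 3 km and sea level the count was 0, and it was 1 with no filter, 3 in the authors' table, 3 with a trend and 120 with array weights. Without sea level replicate 3 that count was 17 without background correction, 15 in the authors' table, 2 for probes detected on all arrays and 2 with no filter, a setting chosen after seeing the data. Between 7 km and 3 km it was 0, and without that array 1 with median scaling and 2 in the authors' table. The median of the members was -1.91 at 7 km and -1.57 at 3 km with median scaling of 9 arrays, when the median of all tested probes was -0.97 and -0.90. At 3 km it was 0.19 with array weights and 0.19 for probes detected on all of 8 arrays. The cause of these shifts was not tested. Leaving out each array in turn gave 0 to 20 probes called and member medians from -0.14 to 0.05 (7 km minus sea level), 0 to 1 and -0.07 to 0.19 (3 km minus sea level), and 0 to 0 and -0.12 to -0.05 (7 km minus 3 km). Deviations from the group mean correlated at 0.0131 to 0.305 between same-numbered arrays on 9 arrays, and at -0.303 to 0.277 between differently numbered ones. On 8 arrays same-numbered arrays correlated at -0.0792 to 0.162. Deviations within a group are bound to cancel, so these values cannot decide whether the numbers pair arrays. With the replicate block the member medians were -0.07, 0.00 and -0.09, and 0 members were called. The mean over probes of 1 gene was not run, since each member had 1 probe.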
